A study of Homo sapiens with 14 samples.

Results

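The silenced part of the KLK locus on chromosome 19, the region of long-range epigenetic silencing (LRES) in prostate cancer cells, holds the 10 kallikrein genes KLK5 to KLK14. It lies next to the active region with KLK1, KLK15, KLK3, KLK2, KLKP1 and KLK4. The 10 genes were taken by symbol from the array's annotation, where each had 1 probe set, among 14884 named genes on 16098 probe sets. Their expression was measured in LNCaP, an androgen-responsive human prostate cancer line grown from a lymph node metastasis, on 14 Affymetrix Human Gene 2.0 ST arrays. The 7 groups of 2 arrays each were cells given a CTCF siRNA pool (small interfering RNA, 20 nM) for 24, 72 or 144 h, cells given a non-target control siRNA pool (20 nM) for the same times, and untransfected cells, whose labels state no time. The cells of both 144 h groups had been split after 72 h and transfected a second time, and all groups are of this 1 cell line. The study asked what becomes of gene expression when CTCF, a DNA-binding protein found at the borders of chromatin domains, is lost.

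Tissue kallikreins are secreted serine proteases that are made as inactive zymogens and cut by a further protease before they work. The members of the silenced region are best known from skin and other surface epithelia, where they form an activation cascade, are held in check by inhibitors such as SPINK5, shed the outer cell layer by cutting desmosomal proteins and signal through protease-activated receptors. In prostate cells the neighbouring genes KLK2, KLK3 (prostate-specific antigen) and KLK4 are switched on by androgen.

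The CTCF siRNA cells were defined by the 4 siRNAs of the pool, printed here as the submitters listed them and read as 5′ to 3′. CTCF itself lies on chromosome 16.
CTCF siRNA 1: gaugaagacugaaguaaug
CTCF siRNA 2: ggagaaagaagaagagua
CTCF siRNA 3: gaagaugccugccacuuac
CTCF siRNA 4: gaacagcccauaaacauag

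Values below are log2 array values after robust multi-array averaging (RMA), so that a difference of 1 is a doubling, and a difference is the value of the first group minus that of the second. Tests are limma's moderated tests, with p-values adjusted over all 16098 probe sets and called under 0.05, and errors on differences are standard errors (SE). The CTCF probe set read 6.73 to 7.46 in the 6 CTCF siRNA arrays, 8.98 to 9.19 in the 6 control siRNA arrays and 8.85 and 8.78 in untransfected cells, so the arrays followed their labels. Of the luminal prostate markers listed, 7 of 10 had a probe set, with means from 5.55 (KRT8) to 10.4 (FOLH1). The 3 of 8 basal markers measured averaged 2.38 to 3.33, 3 of 7 stromal markers 1.48 to 4.14 and 2 of 6 immune markers 2.93 to 3.13. Between CTCF and control siRNA at 144 h no basal, stromal or immune marker was called, and 1 luminal marker (FOLH1) was called lower. Of all probe sets 3.76% were called in that comparison and 1.40% were called lower, and the lists are too short to be set against these shares. Probe sets bind with different strengths and the distance of each from background is not known, so the members' values are compared between arrays and not with each other. Across the 14 arrays all 10 members read between 2.17 and 5.21.

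KLK14 was the only member called in any of the 17 comparisons made. It was 1.66-fold higher in CTCF siRNA cells at 144 h than in untransfected cells, and the other 9 members were not called in that comparison or in the others. KLK14 encodes a trypsin-like protease of skin and glandular epithelia that activates other kallikreins and can cut protease-activated receptor 2.

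KLK14 read 3.87 and 3.81 at 24 h, 3.92 and 3.75 at 72 h and 4.50 and 4.42 at 144 h in CTCF siRNA cells. In control siRNA cells it read 3.86 and 3.62 at 24 h, 3.81 and 3.87 at 72 h and 4.28 and 3.78 at 144 h, and untransfected cells gave 3.77 and 3.68. The CTCF siRNA arrays of 144 h were the highest of all 14, the next was control siRNA replicate 1 of the same time, and the other arrays lay close together.

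Against untransfected cells, KLK14 averaged 4.46 ± 0.06 in CTCF siRNA cells at 144 h and 3.73 ± 0.06 in untransfected cells (SD, n = 2 each). The difference was 0.73 ± 0.13 (SE; 95% CI 0.44 to 1.02; limma adjusted p = 0.00501). The arrays of the groups did not overlap, and the share of all probe sets without overlap in this comparison is not given here. Of all probe sets, 11.1% were called in this comparison and 6.30% were called higher, so 1 call among 10 members was close to the share over all probe sets. The call was kept when any of the 4 arrays was left out (limma adjusted p = 0.0274 to 0.0478) and in the 6 other alternatives run (0.00312 to 0.0213). At 24 h and 72 h the CTCF siRNA cells differed from untransfected cells by 0.11 ± 0.13 at both times, and no member was called (9.25% and 3.22% of all probe sets were).

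Control siRNA cells at 144 h also read above untransfected cells for KLK14, at 4.03 ± 0.35 against 3.73 ± 0.06 (SD, n = 2 each). That difference was 0.30 ± 0.13 (95% CI 0.01 to 0.60; limma adjusted p = 0.276), and it was 0.10 without control siRNA replicate 1 and 0.50 without control siRNA replicate 2. No member was called there, against 4.14% of all probe sets, and 2 of 10 (KLK10 and KLK14) had an unadjusted p under 0.05, as did 16.9% of all probe sets. For CTCF siRNA at 144 h these were also 2 of 10 (KLK10 and KLK14), beside 24.5% of all probe sets. CTCF siRNA cells at 144 h differ from untransfected cells in transfection, in CTCF siRNA and in the split after 72 h. They may also differ in time in culture, since no time is stated for the untransfected cells, whose codes start with 72. These cannot be told apart in that comparison alone.

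Set directly against control siRNA at 144 h, KLK14 was higher by 0.43 ± 0.14 (SE), a ratio of 1.34 with a 95% CI of 1.09 to 1.66. Both CTCF siRNA arrays exceeded both control arrays, as for 24.8% of all probe sets, and the difference did not pass the threshold (limma adjusted p = 0.138). With the SE of this gene a difference of 0.57 would have been needed. The estimate depended on the control arrays: it was 0.63 without control siRNA replicate 1 and 0.23 without control siRNA replicate 2 (limma adjusted p = 0.0945 and 0.568).

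Within the CTCF siRNA series KLK14 was 0.62 ± 0.14 higher at 144 h than at 72 h (95% CI 0.32 to 0.93; limma adjusted p = 0.0847; 0.0544 to 0.364 over the alternatives). Both later arrays lay above both earlier ones, and the share of all probe sets with that order is not given here. In control siRNA cells the same step was 0.19 ± 0.14 (limma adjusted p = 0.907). The difference of these steps, which is the CTCF effect at 144 h minus that at 72 h, was 0.43 ± 0.19 (limma adjusted p = 0.593), which did not pass the threshold.

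KLK14, the member with a call, and KLK13, with a difference of like size from control siRNA at 144 h, are neighbours on the chromosome. Their promoter windows differ in CpG, the dinucleotide that carries DNA methylation. Their sequences are shown for that reason. RefSeq promoter windows (GRCh38.p14; 250 bases before to 50 after a start) were matched for 9 of the 10 members, with 16 windows in all, some overlapping. They held 2 to 23 CpG, with a median of 10, beside medians of 2.5 for 6 windows of the active kallikrein genes and 14 for all 35116 windows. The KLK14 windows were the poorest in CpG of the silenced region together with 1 of KLK11, at 2 to 4. The sequences below are on the minus strand, from 5′ to 3′, with CpG in capitals. That of KLK14 (chr19:51084161-51084460) is the window at the gene's own annotated start, and that of KLK13 (chr19:51064870-51065169) is the window richest in CpG. The other KLK13 window (chr19:51065043-51065342) overlaps it, lies further upstream and held 15 CpG. The 2 printed windows were chosen by different rules, so the contrast between them is wider than between other windows of these genes.
KLK14: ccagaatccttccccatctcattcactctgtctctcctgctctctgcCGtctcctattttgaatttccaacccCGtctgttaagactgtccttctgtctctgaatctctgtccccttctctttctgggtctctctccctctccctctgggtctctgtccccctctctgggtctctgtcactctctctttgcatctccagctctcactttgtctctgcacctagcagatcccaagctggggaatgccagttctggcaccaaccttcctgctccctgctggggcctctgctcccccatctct
KLK13: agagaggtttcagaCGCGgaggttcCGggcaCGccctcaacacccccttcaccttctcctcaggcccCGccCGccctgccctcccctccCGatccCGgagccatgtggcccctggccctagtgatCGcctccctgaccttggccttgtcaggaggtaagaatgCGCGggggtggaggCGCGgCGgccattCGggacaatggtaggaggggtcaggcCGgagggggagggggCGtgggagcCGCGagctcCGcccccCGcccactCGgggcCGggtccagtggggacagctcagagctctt

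Each motif was searched on both strands. The TATA box TATAAA was in none of the 16 windows and in 11.5% of all windows. The GC box GGGCGG was in 10 of 16 and in 45% of all, among them 2 of the 3 windows of KLK14. The androgen receptor hexamer AGAACA was in none of 16 and in 14.8% of all, and the CTCF core consensus was in none of 16 and in 0.47% of all. A looser form of that consensus, with any base at its degenerate positions, was searched first, before the consensus was chosen, and was in 1 of 16 windows (KLK5) and in 2.41% of all. A match of letters is a description of the window only.

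**Figure D1:**
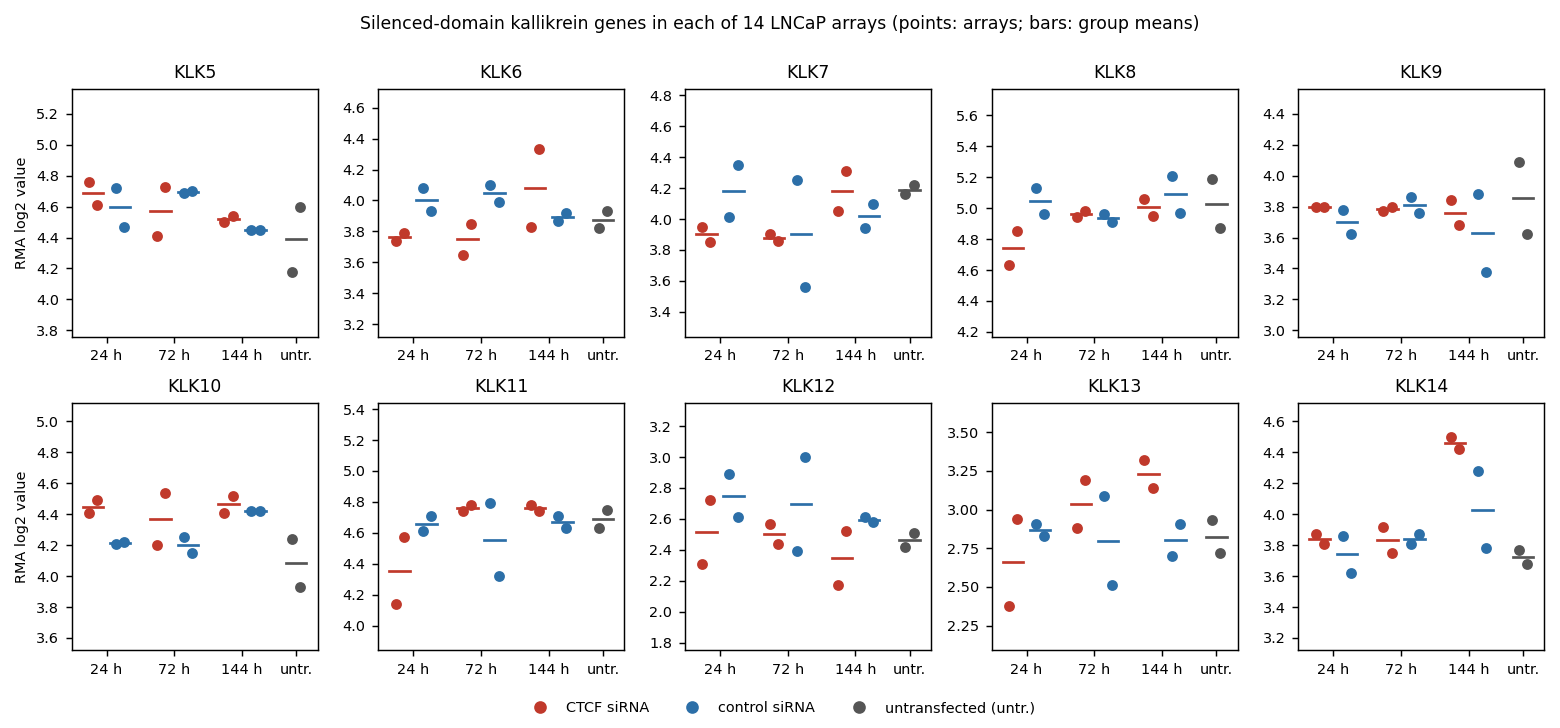
RMA log2 value (vertical axis, each panel spanning the same number of log2 units) of the 10 silenced-domain genes in every array, by time and for untransfected cells; points are arrays and short lines group means, with CTCF siRNA in red, control siRNA in blue and untransfected cells in grey. For KLK14 the CTCF siRNA arrays of 144 h, at 4.50 and 4.42, are the highest of the 14.

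None of the 10 members was called between CTCF and control siRNA at 24, 72 or 144 h or in the mean over the 3 times, where 0.0124%, 0.186%, 3.76% and 2.58% of all probe sets were called by limma. At an unadjusted p under 0.05 there was 1 member at 24 h (KLK8), 0 at 72 h, 1 at 144 h (KLK14) and 0 for the mean, beside 6.03%, 8.03%, 16.4% and 15.7% of all probe sets. The median difference over the 10 members was −0.22 at 24 h, −0.02 at 72 h and 0.11 at 144 h, beside 0.009, −0.014 and 0.003 over all probe sets tested. Members with a higher mean in CTCF siRNA cells numbered 4 of 10 at 24 h, 4 at 72 h and 8 at 144 h. Over all probe sets these shares were 52.3%, 46.6% and 50.5%. Of the 8, KLK5, KLK7, KLK9, KLK10 and KLK11 differed by less than their SE. At 144 h the difference needed for a call ran from 1.43-fold for KLK10 to 1.92-fold for KLK13, and a smaller change would not have been called with 2 arrays per group.

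**Figure D2:**
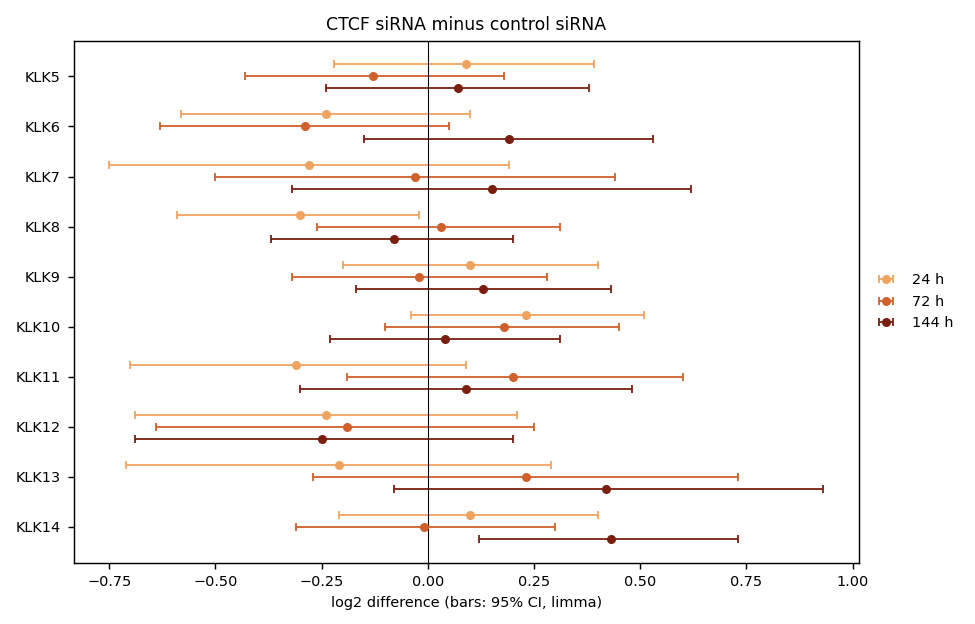
CTCF siRNA minus control siRNA as a log2 difference (horizontal axis) for each silenced-domain gene at 24, 72 and 144 h; points are limma estimates from 2 arrays per group and bars are 95% confidence intervals. The intervals leave out 0 for KLK8 at 24 h (−0.30) and for KLK14 at 144 h (0.43), and neither passed the adjusted threshold.

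KLK5 activates pro-KLK7 and pro-KLK14 in the skin and stands high in the cascade. It read 4.76 and 4.61 at 24 h, 4.41 and 4.73 at 72 h and 4.50 and 4.54 at 144 h in CTCF siRNA cells. In control siRNA cells these times gave 4.72 and 4.47, 4.69 and 4.70, and 4.45 and 4.45, and untransfected cells gave 4.18 and 4.60. The 144 h groups lay apart by a few hundredths of a log2 unit, and their difference was 0.07 ± 0.14. KLK5 in control siRNA cells at 72 h exceeded untransfected cells by 0.30 ± 0.16 (limma adjusted p = 0.494), when 0.478% of all probe sets and no member were called.

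KLK7, a chymotrypsin-like protease of the stratum corneum that cuts corneodesmosin, had its widest gap between duplicates in control siRNA cells at 72 h, with 4.25 and 3.56. In CTCF siRNA cells it read 3.95 and 3.85 at 24 h, 3.90 and 3.86 at 72 h and 4.05 and 4.31 at 144 h. The control siRNA arrays read 4.01 and 4.35 at 24 h and 3.94 and 4.10 at 144 h, and untransfected cells gave 4.16 and 4.22. The CTCF siRNA arrays lay below the control arrays at 24 h and overlapped them at the later times. The differences were −0.28 ± 0.21, −0.03 ± 0.21 and 0.15 ± 0.21 at 24, 72 and 144 h, and that at 24 h ran from −0.49 to −0.08 with 1 array left out.

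KLK13, a trypsin-like protease found in testis and squamous epithelium, had a difference at 144 h close to that of KLK14 with a larger error. It read 2.38 and 2.94 at 24 h, 2.88 and 3.19 at 72 h and 3.32 and 3.14 at 144 h in CTCF siRNA cells. Control siRNA arrays read, in the same order, 2.91 and 2.83, 3.09 and 2.51, and 2.70 and 2.91, and untransfected cells gave 2.93 and 2.72. The CTCF siRNA arrays of 144 h lay above both control arrays, as they did for 24.8% of all probe sets, while the 24 h and 72 h groups overlapped. They also lay above both untransfected arrays, for which no share over all probe sets is given here. The differences from control siRNA were −0.21 ± 0.23, 0.23 ± 0.23 and 0.42 ± 0.23 (95% CI at 144 h −0.08 to 0.93; limma adjusted p = 0.392), and from untransfected cells 0.40 ± 0.22 at 144 h (limma adjusted p = 0.305). The CTCF effect at 144 h exceeded that at 24 h by 0.63 ± 0.32 (limma adjusted p = 0.524), in a comparison in which 0.795% of all probe sets and no member were called.

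KLK10 encodes a kallikrein with little protease activity of its own that is known for its loss in breast cancer cells. It read 4.41 and 4.49 at 24 h, 4.20 and 4.54 at 72 h and 4.41 and 4.52 at 144 h in CTCF siRNA cells. With control siRNA the values were 4.21 and 4.22, 4.25 and 4.15, and 4.42 and 4.42, and untransfected cells gave 4.24 and 3.93. It was the only member whose mean was higher in CTCF siRNA cells at all 3 times, as it was for 17.0% of all probe sets, and the mean difference was 0.15 ± 0.07 (limma adjusted p = 0.347). Of the 3 times only 24 h had arrays that did not overlap, at 0.23 ± 0.12, and the difference of 0.04 ± 0.12 at 144 h changed sign with 1 array left out. At 144 h both transfected groups exceeded untransfected cells, by 0.38 ± 0.14 in CTCF siRNA and 0.34 ± 0.14 in control siRNA cells (limma adjusted p = 0.121 and 0.254), and these comparisons share the untransfected arrays.

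KLK12, a trypsin-like protease that can activate pro-KLK11, was the only member with a lower mean in CTCF siRNA cells at all 3 times, as were 16.0% of all probe sets. It read 2.31 and 2.72 at 24 h, 2.57 and 2.44 at 72 h and 2.17 and 2.52 at 144 h in CTCF siRNA cells. The corresponding control siRNA arrays gave 2.89 and 2.61, 2.39 and 3.0, and 2.61 and 2.58, and untransfected cells gave 2.42 and 2.51. Only the 144 h arrays did not overlap. The mean difference over the times was −0.23 ± 0.12 (limma adjusted p = 0.39), and KLK12 at 144 h differed from untransfected cells by −0.12 ± 0.19.

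KLK11, a trypsin-like protease of prostate and brain, and KLK8 (neuropsin), a trypsin-like protease known from skin and, in mouse, from the hippocampus, both had their lowest group mean in CTCF siRNA cells at 24 h. KLK11 read 4.14 and 4.57 at 24 h, 4.74 and 4.78 at 72 h and 4.78 and 4.74 at 144 h in CTCF siRNA cells. The control siRNA values at these times were 4.61 and 4.71, 4.79 and 4.32, and 4.71 and 4.63, and untransfected cells gave 4.63 and 4.75. Replicate 1 of the 24 h CTCF siRNA arrays was the lowest of the 14, and both arrays of that group lay below both control arrays of 24 h. KLK11 differed from control siRNA by −0.31 ± 0.18 at 24 h (−0.57 to −0.05 with 1 array left out, and −0.05 without CTCF siRNA replicate 1). Within CTCF siRNA cells it was 0.40 ± 0.18 higher at 72 h than at 24 h (limma adjusted p = 0.32), in a comparison that called no member and 0.447% of all probe sets.

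KLK8 read 4.63 and 4.85 at 24 h, 4.94 and 4.98 at 72 h and 5.06 and 4.95 at 144 h in CTCF siRNA cells. The control siRNA values at these times were 5.13 and 4.96, 4.96 and 4.91, and 5.21 and 4.97, and untransfected cells gave 5.19 and 4.87. The 24 h CTCF siRNA arrays were the lowest of all 14. The difference at 24 h was −0.30 ± 0.13 (95% CI −0.59 to −0.02; limma adjusted p = 0.815), and it ran from −0.46 to −0.14 when 1 array was left out. At 24 h a KLK8 difference of 1.19 would have been needed for a call.

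KLK6, a trypsin-like protease abundant in the brain that cuts myelin proteins, read 3.74 and 3.79 at 24 h, 3.65 and 3.85 at 72 h and 3.83 and 4.33 at 144 h in CTCF siRNA cells. The control siRNA values were 4.08 and 3.93, 4.10 and 3.99, and 3.87 and 3.92, and untransfected cells gave 3.82 and 3.93. The CTCF siRNA arrays lay below the control arrays at 24 h and 72 h, and at 144 h replicate 2 was the highest of the 14 arrays while replicate 1 was below both controls. The differences were −0.24 ± 0.15, −0.29 ± 0.15 and 0.19 ± 0.15, with −0.39 to −0.09 at 24 h and −0.41 to −0.17 at 72 h when 1 array was left out. The effect at 144 h exceeded that at 72 h by 0.48 ± 0.22 (limma adjusted p = 0.598).

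KLK9, a little-studied chymotrypsin-like kallikrein, read 3.80 and 3.80 at 24 h, 3.77 and 3.80 at 72 h and 3.84 and 3.68 at 144 h in CTCF siRNA cells. The control siRNA values at these times were 3.78 and 3.62, 3.86 and 3.76, and 3.88 and 3.38, and untransfected cells gave 4.09 and 3.62. The CTCF siRNA arrays were close together throughout and lay within the spread of the other groups, apart from 24 h, where they exceeded both control arrays by a small margin. Its differences from control siRNA were 0.10 ± 0.14, −0.02 ± 0.14 and 0.13 ± 0.14.

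Read as groups that do not overlap, both CTCF siRNA arrays lay above both control arrays for 2 of 10 members at 24 h, 0 at 72 h and 4 at 144 h (KLK5, KLK11, KLK13 and KLK14), beside 18.7%, 16.0% and 24.8% of all probe sets. They lay below for 4 of 10 members at 24 h (KLK6, KLK7, KLK8 and KLK11), 1 at 72 h (KLK6) and 1 at 144 h (KLK12), beside 17.0%, 19.0% and 22.2% of all probe sets. No member was called for a difference between the CTCF effects of 144 h and 72 h or of 72 h and 24 h, where 0.0186% and 0 of all probe sets were called, and 1 member had an unadjusted p under 0.05 among these (KLK14, for 144 h minus 72 h), beside 8.39% and 5.37% of all probe sets. Between times within a treatment no member was called either, beside 0.832% of all probe sets for 144 h against 72 h in CTCF siRNA cells and 0.0870% for 72 h against 24 h and 0 for 144 h against 72 h in control siRNA cells. At an unadjusted p under 0.05 the members were KLK11 for 72 h against 24 h and KLK14 for 144 h against 72 h in CTCF siRNA cells, beside 15.1% and 11.5% of all probe sets. There were 0 for either step in control siRNA cells (12.5% and 6.21% of all) and 0 for the CTCF effect at 144 h minus 24 h (10.8%). Against untransfected cells there were 1 for CTCF siRNA at 24 h (KLK10) and 0 at 72 h, beside 23.3% and 17.3% of all probe sets, and 0 for control siRNA at 24 h and 72 h, beside 21.5% and 11.9%. In control siRNA cells at 24 h no member was called against untransfected cells, when 7.57% of all probe sets were, and the members' differences ran from −0.16 (KLK9) to 0.29 (KLK12).

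**Figure D3:**
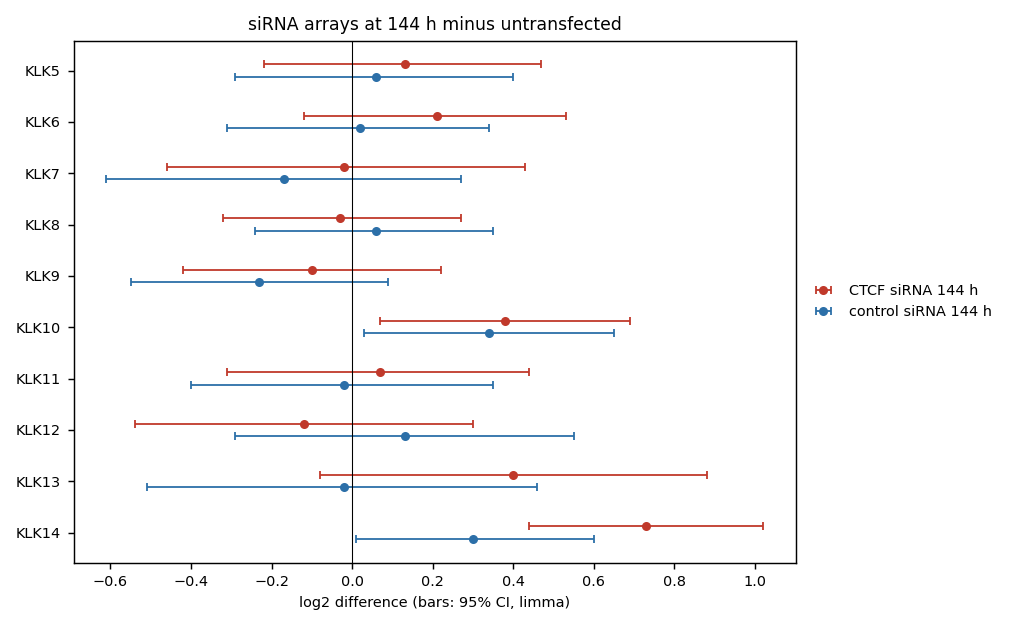
Log2 difference from untransfected cells (horizontal axis) of each silenced-domain gene at 144 h, for CTCF siRNA in red and control siRNA in blue; points are limma estimates from 2 arrays per group and bars are 95% confidence intervals. KLK14 in CTCF siRNA cells stands at 0.73 (0.44 to 1.02), and KLK10 stands at 0.38 in CTCF siRNA and 0.34 in control siRNA cells.

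Averaged over the 10 members, the CTCF siRNA arrays gave 3.80 and 3.94 at 24 h, 3.90 and 3.99 at 72 h and 4.05 and 4.11 at 144 h. The control siRNA arrays gave 4.02 and 3.93, 4.02 and 3.88, and 4.01 and 3.92, and untransfected cells 3.95 and 3.88. The 24 h CTCF siRNA replicate 1 was the lowest of the 14 and both 144 h CTCF siRNA arrays were the highest, with no test made of this average. High values at 144 h were not particular to the silenced region. The genes of the active region averaged 7.11 and 7.28 in the same arrays, exceeded only by CTCF siRNA replicate 2 of 72 h at 7.36. The members' values were weakly related to each other. Over the 14 arrays the median Pearson r of the 45 pairs was 0.09, from −0.54 for KLK5 with KLK8 to 0.78 for KLK11 with KLK13, and 26 pairs were positive. Among the 9 pairs of neighbours on the chromosome the median r was 0.14, with 0.35 for KLK13 and KLK14 and −0.39 for KLK12 and KLK13. These correlations describe 14 arrays that share treatments and normalization.

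The probe sets whose values followed the mean of the members most closely over the 14 arrays were those of CAVIN4 (r = 0.897), MROH6 (0.866), RASSF5 (0.86), STAU2-AS1 (0.816) and MIR93 (0.815). For KLK14 they were AGFG2 (r = 0.914), MAPKAPK2 (0.913) and NCEH1 (0.9). These are the highest r of a search over all probe sets tested, in arrays that share treatments and normalization. High values come with such a search, and shared regulation was not tested. CAVIN4 averaged only 2.15 over the arrays.

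Beside the silenced region, CTCF siRNA cells did not differ from control siRNA cells at the threshold for any of the 6 genes of the active region at 24, 72 or 144 h (limma). KLK4, which lies next to KLK5 across the border of the regions, differed by 0.32 ± 0.12 at 144 h (limma adjusted p = 0.213), and KLK3 by −0.14 ± 0.18. Against untransfected cells, KLK2 was higher in CTCF siRNA cells at 144 h by 0.71 ± 0.17 (limma adjusted p = 0.019), a difference of about the size of that of KLK14, and in control siRNA cells by 0.53 ± 0.17 (adjusted p = 0.119). The first of these comparisons called 11.1% of all probe sets. KLK4 was called lower than in untransfected cells at 24 h in CTCF siRNA cells (−0.48 ± 0.13, limma adjusted p = 0.0363) and in control siRNA cells. Of all probe sets 9.25% and 7.57% were called there. On the outer side of KLK14, CTU1 and SIGLEC9 differed from control siRNA by 0.05 ± 0.12 and −0.26 ± 0.19 at 144 h. The difference between the regions was not tested.

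**Figure D4:**
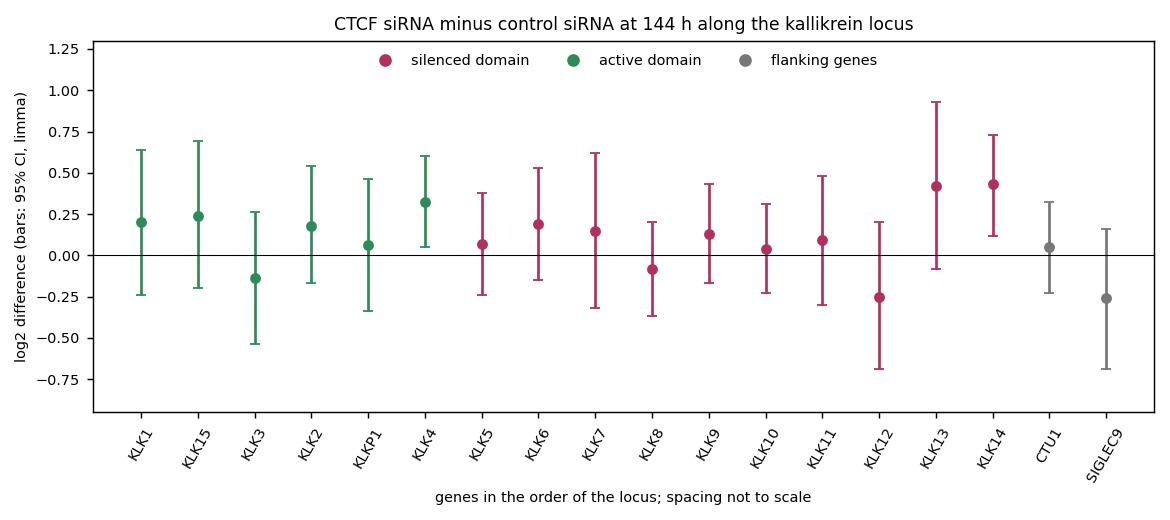
CTCF siRNA minus control siRNA at 144 h as a log2 difference (vertical axis) for the genes of the active region in green, the silenced region in crimson and 2 flanking genes in grey, in their order on the chromosome; points are limma estimates from 2 arrays per group and bars are 95% confidence intervals. Only the intervals of KLK4 (0.32) and KLK14 (0.43) leave out 0, and no gene shown was called.

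Of 49 genes listed as partners of the kallikrein cascade (inhibitors, activating proteases, receptors and substrates), 24 were measured. Between CTCF and control siRNA at 144 h none was called higher and 2 were called lower, beside 2.37% and 1.40% of all probe sets, and none was called at 24 h or 72 h. F2R, which encodes protease-activated receptor 1, the thrombin receptor that several kallikreins can also cut, averaged 4.79 in CTCF siRNA and 6.68 in control siRNA cells (difference −1.90 ± 0.15, n = 2 each, limma adjusted p = 0.000137). APP, the amyloid precursor protein, which KLK6 can cut, averaged 8.37 in CTCF siRNA and 9.69 in control siRNA cells (−1.32 ± 0.14, limma adjusted p = 0.000894). Against untransfected cells at 144 h both were lower after CTCF siRNA, by −1.27 ± 0.14 and −1.19 ± 0.16. ST14 (matriptase), a membrane protease that activates kallikreins in the skin, was higher by 0.67 ± 0.14 (limma adjusted p = 0.0122). In that comparison 1 of the 24 was called higher and 2 were called lower, near the share of all probe sets called (11.1%). In control siRNA cells at 144 h F2R was higher than in untransfected cells, by 0.63 ± 0.14 (limma adjusted p = 0.0359). It was the only partner called there, and 4.14% of all probe sets were called. F2R and APP were also called lower in the mean of the 3 times (−1.0 ± 0.09 and −0.53 ± 0.08; limma adjusted p = 0.000308 and 0.00972), in the CTCF effect at 144 h minus that at 24 h, and at 144 h against 72 h within CTCF siRNA cells. Of all probe sets 2.58%, 0.795% and 0.832% were called in these comparisons. At 24 h, DSC1, the desmosomal protein desmocollin 1, averaged 4.24 in CTCF siRNA and 3.38 in untransfected cells (0.85 ± 0.20, limma adjusted p = 0.025). HPN (hepsin), a membrane serine protease, averaged 6.38 in CTCF siRNA and 6.89 in untransfected cells (−0.51 ± 0.14, limma adjusted p = 0.0471), and 9.25% of all probe sets were called in that comparison.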

How the data were processed

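Total RNA of LNCaP cells was hybridised to arrays, and the deposited log2 values were made by the authors in R 3.2.5 by RMA (background correction, quantile normalization, median polish). Nothing was normalized further, except in 1 alternative. Probe sets with 1 named gene in the platform annotation (16098 of 53617 rows) were tested, and the other 37519 rows entered an alternative. In R 4.3.3, limma 3.58.1 (lmFit, eBayes, two-sided, Benjamini-Hochberg, threshold 0.05) was fitted over the 12 siRNA arrays with 6 groups. For comparisons with untransfected cells it was fitted over all 14 arrays with 7 groups. The replicate number in the sample title was the block. The study's methods also enter the pairing of replicates, but the pairs are not named there. The description codes give the 24 h arrays other replicate numbers than the remaining arrays. The block may therefore join unlike replicates between the 24 h arrays and the other groups. All arrays of a fit share 1 block term and 1 spread estimate per probe set. A mismatch can thus enter the SE and p-values of every comparison. The study describes biological duplicates, and the p-values measure only the spread between these arrays; their number limits the precision. Simulated arrays were used to test the scripts. All members are named, and partners where called. The members, lists and comparisons were chosen with earlier results of these data known. Olfactory receptors, planned as a low-level comparison, were represented by 1 probe set and were not used. Scanner files were not analysed here. Names, neighbour order and promoters came from RefSeq (GRCh38.p14), since the array table names no build.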

Additional observations from a re-analysis of the deposited data

How the results depend on the processing

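The number of members called stayed at 1 for CTCF siRNA at 144 h against untransfected cells and at 0 in the other 16 comparisons, with KLK14 as the called member, under every alternative that could be fitted. Those were no replicate block, the number in the description code as block, every row of the table, a filter on low values (which KLK12 and KLK13 did not pass), limma with trend and robust, arrays centred on the median, all 14 arrays or the 4 of a time in the fit, and each array left out. The description number could not be fitted for comparisons of 24 h with another time or with untransfected cells. Without the replicate block KLK14 at 144 h still differed from untransfected cells by 0.73 (limma adjusted p = 0.0083). The block changed no other call of a member. Same-numbered arrays deviated together in 2 of 21 pairs of groups (r above 0.1, range −0.086 to 0.228). Those 2 were CTCF with control siRNA at 72 h (0.228) and at 144 h (0.154), and the same pair at 24 h gave 0.043. For the other pairs the samples may share only a number. The count over all probe sets moved more: for CTCF against control siRNA at 144 h it was 606, between 210 and 245 with 1 array left out and between 274 and 861 otherwise, and for CTCF siRNA at 144 h against untransfected cells it was 1785, 792 to 1096 and 1754 to 2287. Signs of small differences from control siRNA turned with the arrays centred on the median for KLK7, KLK9 and KLK14 at 72 h (0.01, 0.02 and 0.03) and for KLK11 in the mean of the times (0.01). Signs also turned with 1 array left out. At 24 h the ranges of the difference were KLK5 −0.06 to 0.23, KLK12 −0.50 to 0.02 and KLK13 −0.52 to 0.10. At 72 h the ranges of the difference were KLK5 −0.32 to 0.07, KLK7 −0.44 to 0.38, KLK8 −0.03 to 0.09, KLK9 −0.13 to 0.08, KLK11 −0.08 to 0.49, KLK12 −0.46 to 0.08, KLK13 −0.14 to 0.60 and KLK14 −0.14 to 0.13. At 144 h the ranges of the difference were KLK6 −0.06 to 0.43, KLK7 −0.01 to 0.32, KLK8 −0.20 to 0.03, KLK9 −0.08 to 0.34 and KLK10 0.00 to 0.08. For the mean of the times the ranges of the difference were KLK5 −0.05 to 0.07, KLK7 −0.19 to 0.08, KLK9 0.00 to 0.14 and KLK11 −0.10 to 0.09. For KLK14 the others were −0.24 to 0.03 (CTCF effect, 72 h minus 24 h), −0.06 to 0.05 (CTCF siRNA, 72 h versus 24 h), −0.03 to 0.24 (control siRNA, 72 h versus 24 h), −0.01 to 0.39 (control siRNA, 144 h versus 72 h), −0.03 to 0.07 (control siRNA 24 h versus untransfected) and −0.01 to 0.24 (control siRNA 72 h versus untransfected). None of these differences was called, and the cause was not tested.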
